A study of Mesocricetus auratus with 24 samples.

Results

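Hexokinase 2 (Hk2, ENSMAUG00000020920) was followed as a single gene, 1 row of the 22283 in a count table of hamster liver RNA. It was chosen by its measured values in these libraries, since the study lists it among metabolic genes that differ between livers of hamsters fed a high-fat diet with and without Totum-070. That difference is therefore given below as a description, without a test. The livers came from male golden Syrian hamsters, all labelled wild type (WT), that entered the study at 8 weeks of age. There were 8 hamsters, with 1 library each, in the normal diet group (ND), in the high-fat diet group (HFD) and in the group whose HFD contained 5% (wt/wt) of the plant-extract blend Totum-070 (HFD-T070 5%). The HFD drew most of its fat from hydrogenated coconut oil and was rich in fructose and cholesterol, and all hamsters were fasted before the livers were taken. The methods give 12 weeks on the diets, whereas the labels give 6. The methods also give 2 or 3 hamsters per cage, and the cage of each hamster is not given in the sources used here, so the tests treat every hamster as independent.

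Hexokinases trap glucose in the cell by phosphorylating it to glucose-6-phosphate, the shared entry to glycolysis, glycogen synthesis and the pentose phosphate pathway. Hexokinase 2 is the high-affinity form typical of skeletal muscle, heart and adipose tissue, is partly bound to the mitochondrial surface, and is also found in activated macrophages and in many tumours. Adult hepatocytes normally contain little of it, and another member of the family carries out this step in them. These counts come from whole liver, so a change in the number of cells that express a gene cannot be told apart from a change in its RNA per cell.

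The total counts per library ranged from 10789142 to 20740364. The lowest total was that of HFD replicate 7, and the other 23 libraries had at least 15289624. HFD replicate 1, as labelled, was unlike the rest of its group and lay among the ND libraries, both for Hk2 and over the most variable genes. The fold changes of Hk2, the list counts and the relations below are therefore given with and without it, as are some values of other genes.

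Hk2 was read at 7 to 25 counts in the ND livers and at 218 to 460 counts in 7 of 8 HFD livers, and lay at an intermediate level in the HFD-T070 5% livers. In the ND group, replicates 1 to 8 had 19, 7, 9, 13, 25, 21, 12 and 19 counts of Hk2. After scaling to counts per 1000000 counts (CPM) with TMM normalization, which corrects library totals for differences in RNA composition, these were 0.462 CPM at the lowest (replicate 2), 0.992 CPM at the median and 1.57 CPM at the highest (replicate 5), with a mean of 0.996 ± 0.379 CPM (SD, n = 8). No ND liver had more than 25 counts of Hk2, and each library held at least 15289624 counts in all.

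In the HFD group, replicates 1 to 8 had 16, 218, 325, 460, 369, 361, 248 and 404 counts. On the CPM scale, replicate 1 had 1.11 CPM, inside the ND range, and the other 7 libraries ran from 11.6 CPM (replicate 2) to 24.8 CPM (replicate 7). The group mean was 15.7 ± 7.07 CPM (SD, n = 8) with replicate 1 and 17.8 ± 4.18 CPM (SD, n = 7) without it. The highest library depended on the scaling, since HFD replicate 7 led after TMM normalization, whereas HFD replicate 4 (26.2 CPM against 23.0 CPM for replicate 7) led when library totals alone were used.

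In the HFD-T070 5% group, replicates 1 to 8 had 114, 158, 140, 103, 256, 63, 191 and 101 counts. The lowest level was 3.55 CPM in replicate 6, the median was 7.05 CPM and the highest was 12.2 CPM in replicate 5, with a mean of 7.48 ± 2.75 CPM (SD, n = 8). Every library of this group was above every ND library. The highest of them, replicate 5, was above HFD replicate 2, and no other HFD-T070 5% library reached the HFD libraries other than replicate 1.

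**Figure D1:**
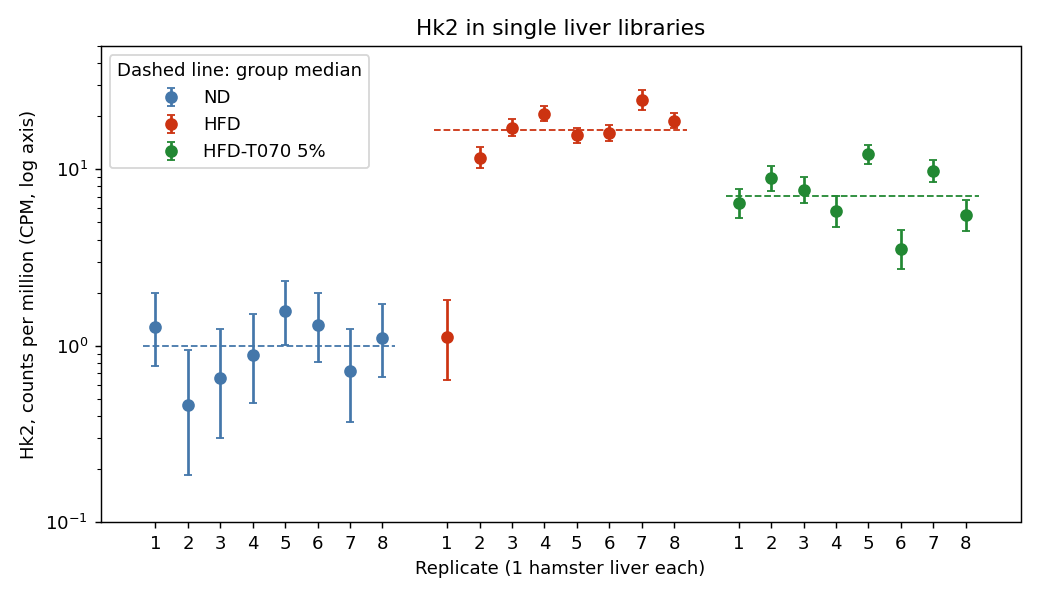
Hk2 in CPM (log axis) in each of the 24 liver libraries, by group and replicate. Points are single hamsters, bars are exact 95% Poisson intervals that cover counting error only, and dashed lines are group medians of 0.992 (ND), 16.6 (HFD) and 7.05 CPM (HFD-T070 5%). HFD replicate 1, at 1.11 CPM, lies among the ND libraries.

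The counting error was small beside these steps. Exact 95% Poisson intervals, which cover counting error only, ran from 0.186 to 0.952 CPM for the lowest ND library and from 1.01 to 2.31 CPM for the highest. The interval of the lowest HFD-T070 5% library, 2.73 to 4.55 CPM, lay above the latter. When the 24 libraries were ordered by level, the intervals of 21 of the 23 neighbouring pairs overlapped. The 2 pairs without overlap were HFD replicate 5 next to HFD-T070 5% replicate 5, and HFD-T070 5% replicate 6 next to ND replicate 5.

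Hamsters of the same group differed in Hk2 by more than counting error. The coefficient of variation was 38.0% in the ND group, where counting alone gives about 25.3%. It was 36.8% in the HFD-T070 5% group and 23.4% in the HFD group without replicate 1, where counting alone gives about 8.43% and 5.42%. With HFD replicate 1 the latter was 44.9%. The highest library had 3.39 times the level of the lowest in the ND group, 3.44 times in the HFD-T070 5% group and 22.2 times in the HFD group. Without HFD replicate 1 the last of these ratios was 2.13. In the fit over all libraries, the biological coefficient of variation of Hk2 was 47.5%, where the median gene had 17.0%.

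Hk2 was higher in the HFD livers than in the ND livers. The log2 fold change was 3.97 (standard error 0.40), a 15.6-fold difference, with an adjusted p-value of 8.79e-08 from edgeR's quasi-likelihood test over the 13134 genes that passed its filter on low counts. Hk2 reached the level this filter asks for in 7 of 8 ND libraries and in all 16 others, so it would not have passed on the ND libraries alone. Changes were common in this comparison, in which 27.2% of the genes tested were higher and 26.1% were lower at an adjusted p-value under 0.05. By size, the rise of Hk2 was the 85th largest of the genes tested. Leaving out HFD replicate 1 gave a 17.9-fold difference (log2 fold change 4.17, standard error 0.25, with 1.56e-12 as edgeR's adjusted p), and the libraries of the groups no longer overlapped. Of the genes tested without that library, 30.3% were higher by the same threshold and 13.7% were likewise higher in every HFD library than in every ND library. An exact two-sided permutation test of log2 CPM gave p = 6.22e-04 with all libraries, where 12870 splits allow p = 1.55e-04 at the least. Without HFD replicate 1 the exact permutation p was 3.11e-04, the smallest that its 6435 splits allow. The HFD libraries of this comparison are those in which the gene was found to be high, so it is not independent of the choice of Hk2. For this reason and because of the filter, the p-values given here are descriptions and no independent support.

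With Totum-070 in the HFD, Hk2 was likewise higher than in the ND livers. The difference was 7.45-fold (log2 fold change 2.90, standard error 0.40, with 8.64e-06 as edgeR's adjusted p), the 101st largest rise of the genes tested. Without HFD replicate 1 in the fit it was 7.53-fold (log2 fold change 2.91, standard error 0.25, with 2.03e-09 as edgeR's adjusted p). In that fit 24.7% of the genes tested were higher. The HFD-T070 5% livers ranged from 3.57 to 12.3 times the ND mean. Of all genes tested, 22.2% were higher in this comparison at an adjusted p-value under 0.05, and at 10.8% the libraries of the groups separated upward without overlap, as they did at Hk2. The exact two-sided permutation test of log2 CPM gave p = 1.55e-04, which is the lower limit for groups of 8 and 8. This comparison shares its ND libraries with the previous one and its HFD-T070 5% libraries with the contrast that chose the gene. Here too, Hk2 would not have passed the filter on the ND libraries alone. These p-values are therefore descriptions and no independent support.

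Set against the HFD livers, the HFD-T070 5% livers had less Hk2, and the values that chose the gene gave a fitted log2 difference of −1.07 (standard error 0.33). At an adjusted p-value under 0.05, 2.47% of the genes tested were lower in this comparison. Without HFD replicate 1 the log2 difference was −1.25 (standard error 0.21), and 12.4% of the genes tested were lower. The HFD-T070 5% mean was 47.5% of the HFD mean, and 41.9% of it without HFD replicate 1. Taken hamster by hamster against the HFD mean without replicate 1, the HFD-T070 5% livers held 19.9% (replicate 6) to 68.5% (replicate 5) of that level. The HFD library was the higher one in 55 of the 64 pairs that an HFD and an HFD-T070 5% library can form, and in 55 of 56 without HFD replicate 1. The remaining pair was HFD replicate 2 with HFD-T070 5% replicate 5.

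**Figure D2:**
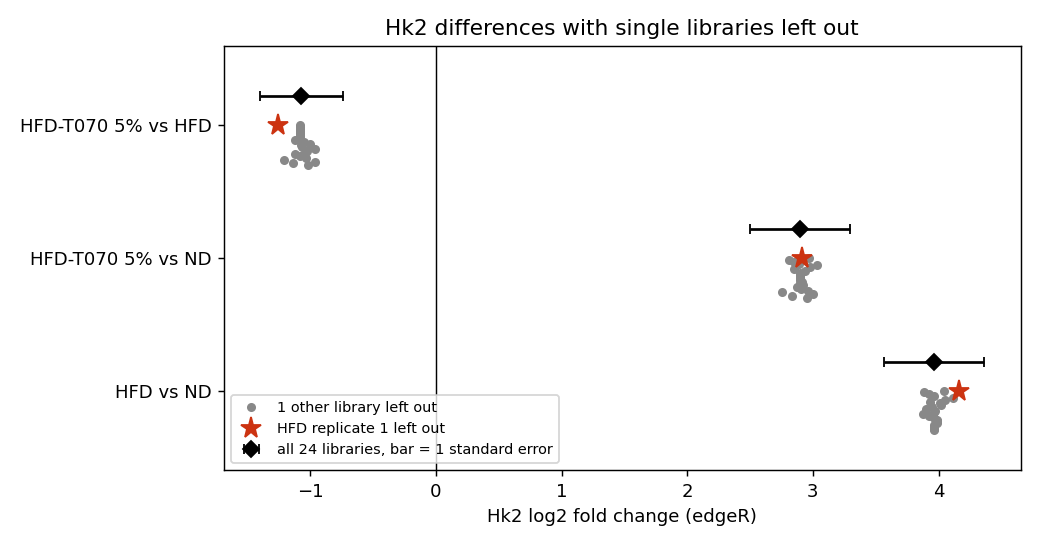
Fitted log2 fold changes of Hk2 in the 3 comparisons. Diamonds with bars show all 24 libraries with 1 standard error, stars the fit without HFD replicate 1, and grey points the fits without each of the other libraries. HFD compared with ND stayed between 3.88 and 4.17, HFD-T070 5% compared with ND between 2.76 and 3.03, and HFD-T070 5% compared with HFD between −1.25 and −0.96.

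To set Hk2 beside the wider response of each liver, each library was given a position over the 250 most variable genes other than Hk2. On this scale the ND average is 0 and the HFD average is 1. A library did not enter the average of the group it belongs to. HFD replicate 1 had a position of −0.0113, and the rest of that group had 0.912 to 1.27. The HFD-T070 5% libraries lay at 0.805 ± 0.0999 (SD, n = 8), from 0.701 to 1.02, with replicate 5 the highest, as it was for Hk2. On the same kind of scale, the log2 CPM of Hk2 alone put the HFD-T070 5% libraries at 0.773 ± 0.153 (SD, n = 8), from 0.504 (replicate 6) to 0.992 (replicate 5). With HFD replicate 1 left out of both measures, the means were 0.702 ± 0.0870 over the variable genes and 0.681 ± 0.135 for Hk2 (SD, n = 8). Hk2 was listed for a lower level in HFD-T070 5% than in HFD, so a mean below 1 for it was set by the choice. Its nearness to the mean over the variable genes is a description and supports nothing.

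Within groups, no relation between Hk2 and this position passed the threshold after adjustment. In the HFD-T070 5% group, Pearson's r was 0.39 (exact permutation p = 0.343, adjusted over 3 relations 0.343) and Spearman's rho was 0.19 (exact permutation p = 0.665, adjusted 0.752), with n = 8. Pearson's r was −0.09 without replicates 2 and 5, the libraries farthest from the median position, so its sign rested on them. HFD-T070 5% replicate 6, with the lowest Hk2 of its group, lay at 0.816, the third highest position of that group. In the ND group, r was 0.42 (exact permutation p = 0.295, adjusted 0.343) and rho was 0.14 (exact permutation p = 0.752, adjusted 0.752), with n = 8, and r was 0.28 without replicates 2 and 7. In the HFD group with all 8 libraries, r was 0.96 (exact permutation p = 0.0230, adjusted 0.0691) and rho was 0.57 (exact permutation p = 0.151, adjusted 0.453), with n = 8. Replicate 1 formed a cluster of its own there, and r rested on it. Among the other 7 libraries, a choice made after seeing the data, r was 0.39 (exact permutation p = 0.364, adjusted 0.364) and rho was 0.36 (exact permutation p = 0.444, adjusted 0.752).

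**Figure D3:**
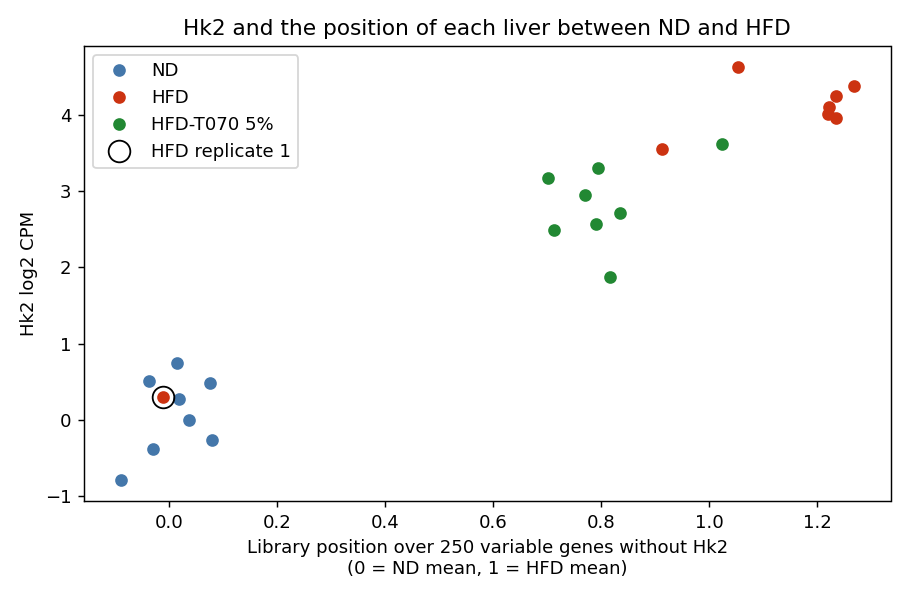
Hk2 level (log2 CPM) of each library against its position on the scale from the ND average (0) to the HFD average (1) over 250 variable genes without Hk2. The ND libraries and the circled HFD replicate 1 lie at positions of at most 0.0793, and the HFD-T070 5% libraries lie between 0.701 and 1.02.

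Hk2 was next set beside the other genes of the study's list. The study chose this list on these same libraries, for the difference of HFD-T070 5% from HFD, so its counts are not independent evidence. Of 16 listed genes other than Hk2, 12 were higher and 1 was lower in the HFD group than in the ND group at an adjusted p-value under 0.05 from edgeR, against 27.2% higher and 26.1% lower of all genes tested. Their median log2 fold change was 2.30, and the median over all genes tested was −0.03. When the fit held only the ND and HFD libraries, 8 of the 16 passed in place of 13. Without HFD replicate 1, 12 were higher and 3 were lower, against 30.3% and 27.4% of all genes tested. In HFD-T070 5% compared with ND, 9 were higher and 4 were lower (22.2% and 20.9% of all genes tested), with a median log2 fold change of 0.82. Without HFD replicate 1 these counts were 10 and 4 (24.7% and 21.4% of all genes tested). Of the genes called higher, 8 of 12 in HFD and 6 of 9 in HFD-T070 5% would not have passed the filter on the ND libraries alone. They were tested because they are higher in another group, so the counts of higher genes and the medians are descriptions and support nothing.

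Hk2 was among the listed genes with the largest rises over the ND livers. In HFD compared with ND, only Atp6v0d2, Bst1 and Asns had a larger fitted log2 fold change than Hk2. Asns, which makes asparagine, had 4.01 (standard error 0.56), within the error of the 3.97 (standard error 0.40) of Hk2. The ND means of Atp6v0d2, Bst1 and Asns were only 0.0074, 0.48 and 0.16 CPM, so this order rests on values near the floor. In HFD-T070 5% compared with ND, Atp6v0d2 and Bst1 alone were above Hk2 in rise. There, Asns had 1.95 (standard error 0.63), while Mthfd2, an enzyme of mitochondrial folate metabolism, had 0.65 (standard error 0.29) and did not pass the threshold with all libraries (edgeR adjusted p = 0.0668), but passed without HFD replicate 1 (0.00878). Of the genes that were lower there, Acly and Lipg were farther from ND in size than Hk2. Lipg, endothelial lipase, had −3.63 on the log2 scale (edgeR adjusted p = 2.43e-04). Acly, which supplies cytosolic acetyl-CoA for lipid synthesis, ran in the other direction, at −3.74 on the log2 scale (edgeR adjusted p = 0.00404) in HFD-T070 5% against ND. In HFD against ND, Acly had −1.35 with all libraries (edgeR adjusted p = 0.216) and −4.65 without HFD replicate 1 (1.57e-07).

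Among the 13133 other genes tested, likeness to Hk2 was measured as the root mean square difference of standardized log2 CPM over the 24 libraries. Here 0 is the same pattern and larger values are less alike. The largest possible values mark the opposite pattern, and genes without a relation to Hk2 lie between these ends. The libraries of a group share their diet, so this measure mainly reflects the differences between groups and HFD replicate 1. The most similar genes were ENSMAUG00000011232 (0.211) and ENSMAUG00000001049 (0.215), for which no symbol is given in the sources used here. The former had a mean of 4.36 CPM with ND, 32.5 CPM with HFD and 19.1 CPM with HFD-T070 5%, and the latter had 1.49, 28.3 and 14.6 CPM in the same order. HFD replicate 1 had 4.81 and 2.30 CPM of them. The least similar, ENSMAUG00000011081 (1.95) and ENSMAUG00000021512 (1.94), were highest in the ND group. Of the study's list, Pla2g7 was the most similar (0.277, rank 55), followed by Bst1 (0.290, rank 78), B3galnt1 (0.310, rank 136) and Atp6v0d2 (0.331, rank 198). Acly (1.88, rank 12546), Sqle (1.84, rank 11820) and Lipg (1.83, rank 11755) were among the least similar. Without HFD replicate 1, added after seeing the data, the 2 most and the 2 least similar genes were the same, and Pla2g7, Bst1, B3galnt1 and Atp6v0d2 had ranks 62, 93, 144 and 218.

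When the mean of each group was first removed, so that only differences between hamsters of the same group counted, B3galnt1 (0.559, rank 112), Pla2g7 (0.570, rank 132), Atp6v0d2 (0.583, rank 151) and Bst1 (0.584, rank 153) were again the listed genes most like Hk2. HFD replicate 1 lies far below the other HFD libraries for each of these genes. Without it, Bst1, Pla2g7 and Atp6v0d2 had ranks 586, 659 and 1219, so their high ranks within groups rested on that library. B3galnt1 kept a similar rank (114), but its difference from Hk2 rose to 0.956. The smallest difference of any gene was 0.385 with that library and 0.699 without it. The closeness of B3galnt1 to Hk2 within groups thus also rested in part on HFD replicate 1.

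Pla2g7, Bst1 and Atp6v0d2, together with Alox5, are the 4 genes of the list that are associated with myeloid cells, a lineage that also includes liver macrophages. Pla2g7 hydrolyses platelet-activating factor, Bst1 is a surface ADP-ribosyl cyclase, Atp6v0d2 belongs to the proton pump that acidifies lysosomes, and Alox5 begins leukotriene synthesis. Alox5 was less like Hk2 than the other 3. Over the 24 libraries it had rank 1014, also behind B3galnt1 (136), Mboat1 (938) and Asns (940). After removal of group means it had rank 1503, also behind B3galnt1 (112), Mthfd2 (587), Asns (774), Acss1 (1015), Mboat2 (1098) and Mboat1 (1188). Without HFD replicate 1 the 2 ranks of Alox5 were 1063 and 6296. All 4 genes were higher than in the ND group in both diet comparisons (adjusted p of at most 0.00128 from edgeR). So were 27.2% (HFD) and 22.2% (HFD-T070 5%) of all genes tested, and 12 and 9 of the 16 listed genes. In the HFD group the log2 fold changes were 3.25 (Pla2g7), 4.72 (Bst1), 8.47 (Atp6v0d2) and 3.69 (Alox5). In the HFD-T070 5% group they were 2.24, 3.21, 6.23 and 2.35 in the same order. Atp6v0d2 had no count in 7 of 8 ND libraries or in HFD replicate 1, so its fitted fold changes depend on the prior count of the fit. Atp6v0d2, Alox5 and Bst1 would not have passed the filter on the ND libraries alone, so their adjusted p-values against ND are no support. Pla2g7 is the only one of the 4 that would have. It was listed on these same HFD and HFD-T070 5% libraries, so its test is not independent of that choice either.

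Hk2 and these 4 genes were all listed by the study for a lower level in HFD-T070 5% than in HFD. Their shared step between those groups was thus set by the choice and supports nothing. As a description, the summed level of the 4 genes moved with Hk2 between groups. Most of it was Pla2g7, with a mean of 74.7 CPM in the HFD group without replicate 1. The sum ranged from 5.93 to 10.6 CPM in the ND group, from 30.5 to 57.7 CPM in the HFD-T070 5% group and from 55.1 to 123.2 CPM in the HFD group without replicate 1, which had 8.64 CPM. The highest sum of the HFD-T070 5% group was that of replicate 5, the library with the most Hk2, and the lowest sum of the 7 other HFD libraries was that of replicate 2, the library with the least Hk2 among them. Elsewhere the orders parted. HFD replicate 7, with the most Hk2, had the second lowest sum of these 7 (67.3 CPM) but the highest Bst1 of all libraries (22.8 CPM), and HFD-T070 5% replicate 6, with the least Hk2 of its group, had a sum of 36.7 CPM, near the group's median of 36.3 CPM. The part of these cells in the Hk2 levels was not tested.

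**Figure D4:**
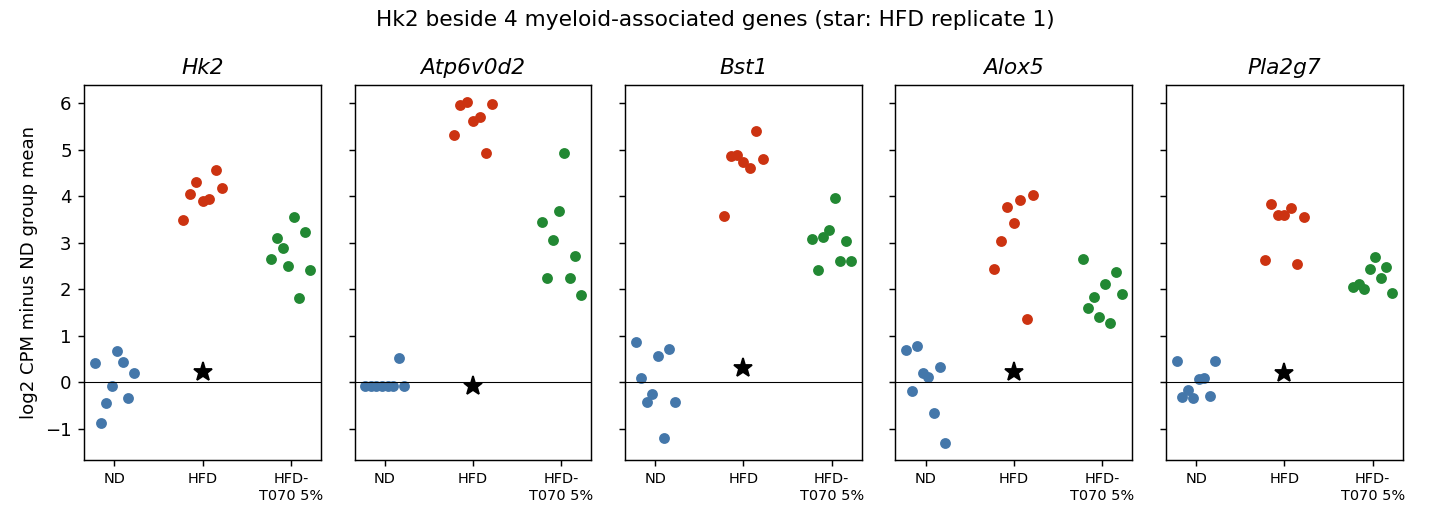
Log2 CPM minus the ND group mean of Hk2 and of the 4 myeloid-associated genes Atp6v0d2, Bst1, Alox5 and Pla2g7, with 1 point per library and a star for HFD replicate 1. In each panel the star lies among the ND libraries, and all HFD-T070 5% libraries lie above all ND libraries. The latter held for 10.8% of all genes tested. All genes shown were listed on these libraries, and only Pla2g7 would have passed the filter on the ND libraries alone.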

How the data were processed

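Liver RNA of 24 hamsters was depleted of ribosomal RNA and sequenced as directional, single-end libraries of 75 cycles. Per the submitters' processing notes and the methods, the authors used Trimmomatic 0.36 for trimming, and STAR 2.7.10 for alignment to MesAur1 and for counting. The deposited values are raw counts, 1 whole number per gene and library. The annotation release and the strand setting are not given in the sources used here, so genes overlapping Hk2 could share its reads. How reads that also fit related hexokinase genes were handled is likewise not stated there. Groups and replicates came from the labels, and columns were matched by name.

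In R 4.3.3, edgeR 4.0.16 was applied with filterByExpr (minimum count 10, minimum total 15), TMM, estimateDisp, glmQLFit and glmQLFTest over all libraries and the 3 groups, with Benjamini–Hochberg adjustment over 13134 genes and a threshold of 0.05. TMM and the quasi-likelihood functions are those of the study's methods, while the filter and estimateDisp are not stated there. Each standard error was taken as |log2 fold change|/√F. Log2 CPM used a prior count of 2, and positions used variance-stabilized counts from DESeq2 1.42.0. Fits with DESeq2's Wald test and voom of limma 3.58.1, other scalings and filters, and fits without each library were the alternatives. The fit was tested on simulated data for HFD compared with ND only. It recovered 187 of 200 changed genes, with 7 false calls among 194. Of the genes changed 2-fold it recovered 87%, and of those changed 4-fold 100%. All pairs of libraries within a group differed beyond sampling noise (lowest chi-square/df 8.07), so each was 1 replicate.

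Hk2, the gene lists and the tests were chosen with earlier results of these data known. Named genes were Hk2, the study's listed genes and the 2 most and 2 least similar to Hk2. None of the 22283 Ensembl identifiers was matched by the RefSeq gene table, so symbols come from the study's list, and glycolysis genes and markers of hepatocytes and other liver cells were not analysed here. No genome or sequence was used here. A further gene of the study's list is not reported here.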

Additional observations from a re-analysis of the deposited data

Results flagged for a closer look

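In 12 groups of 8 values (Hk2 log2 CPM, total counts, positions and the summed myeloid-associated genes in each diet group), the highest or lowest library was compared with its nearest neighbour by Dixon's ratio of gap to range. The ratio passed the critical value for 8 values in 4 groups, and about 1 group in 20 would do so by chance. HFD replicate 1 had an Hk2 level of 0.30 log2 CPM, where the other HFD libraries had 3.56 to 4.64, and a position of −0.0113, where the others had 0.912 to 1.27. HFD replicate 7 had a total of 10789142 counts, where the other HFD libraries had at least 16211548. HFD-T070 5% replicate 5 had a position of 1.02, where the others of its group had 0.701 to 0.835, and it also held the most Hk2 of its group.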

How the results depend on the processing

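Hk2 was chosen on these libraries and would not have passed the filter on the ND libraries alone, so its adjusted p-values are descriptions. In all 32 alternatives that gave a value, its log2 fold change kept its direction and, against ND, its side of the threshold. It was 3.72 (voom) to 4.32 (library totals without TMM) in HFD compared with ND, with adjusted p-values of 7.17e-25 to 2.15e-04, and 2.76 to 3.13 in HFD-T070 5% compared with ND, with adjusted p-values of 4.00e-13 to 0.00416. With single libraries left out, these values were 3.88 to 4.17 and 2.76 to 3.03. The untested difference between HFD-T070 5% and HFD was −1.25 to −0.84, and −1.25 to −0.96 with single libraries left out. A minimum of 10 counts in every library removed Hk2, so that alternative gave no value. Library totals in place of TMM moved the median log2 fold change of all genes in HFD compared with ND from −0.03 to 0.29. Relative to this median, Hk2 had 4.00 with TMM and 4.04 with totals. Without HFD replicates 1 and 7, chosen after seeing the data, the 3 values were 4.07, 2.91 and −1.16.

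Of the study's list, 13 of 16 genes passed in both comparisons with ND. A minimum of 10 counts in every library leaves fewer genes tested and removes listed genes too, such as Atp6v0d2, Alpl, Alox5 and Mboat1. With this minimum, 5 and 7 passed. With only the ND and HFD libraries in the fit, 8 passed in HFD compared with ND. With single libraries left out, 13 to 15 and 12 to 14 passed. The relation of Hk2 with position changed sign without the 2 libraries farthest from the median position, to r = −0.088 in the HFD-T070 5% group and r = −0.67 in the HFD group (exact permutation p = 0.863 and 0.161, with n = 6). In the HFD group r was 0.96 with replicate 1 and 0.39 without it.

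Replicate numbers did not pair the hamsters. The correlation of same-numbered deviations over genes ranged from −0.24 to 0.49, and was over 0.1 in 2 or 3 of 8 pairs per comparison. Of the 8 libraries of the first group in each comparison, at most 2 correlated best with their own number. With the replicate number as a block, the log2 fold changes of Hk2 were 3.88, 2.88 and −1.0, and 15 and 13 listed genes passed.

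Depth limits Hk2 most in the ND group, where it had 7 to 25 counts per library.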
